A study of Sus scrofa with 48 samples.

Results

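S100 proteins are small calcium-binding proteins, and 7 of their genes were followed in the whole blood of pigs from 2 lines selected for residual feed intake (RFI), a measure of feed efficiency in which a low value marks a pig that eats less than others of its size and growth rate. The genes were S100A8, S100A9, S100A12, S100A4, S100A6, S100A10 and S100A11. They were taken by name: a spot of the array belonged to them when its gene name was one of these symbols and when the authors had retained it, which gave 16 spots, and 7 of the 26924 gene names among the 37113 retained spots. Blood had been drawn into EDTA at slaughter, at 132 days of age, from 48 castrated male French Large White pigs, 24 of the low RFI line and 24 of the high RFI line. In each line 12 pigs had been fed a high-fat, high-fiber (HF) diet and 12 a low-fat, low-fiber (LF) diet, and each pig was read on 1 porcine array in a single colour. A single line was selected in each direction. Fat and fiber differed together between the diets and cannot be told apart in these data.

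S100A8 and S100A9 pair to form calprotectin, which is very abundant in the cytosol of neutrophils and is also made by monocytes, and S100A12 is made mainly by neutrophils. When these cells are activated or die the proteins act outside the cell on receptors such as TLR4 and AGER. S100A4 and S100A6 bind cytoskeletal and signalling proteins and are made by many cell types including lymphocytes, S100A10 is the partner of annexin A2 (ANXA2) at the plasma membrane, and S100A11 binds annexin A1 (ANXA1). In the RefSeq table of the pig assembly Sscrofa11.1 all 7 genes lie on chromosome 4, in the order S100A4, S100A6, S100A8, S100A12, S100A9, S100A11 and S100A10. In whole blood, fewer cells of a type and less RNA per cell cannot be told apart.

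The array reads each gene through probes of 60 bases, and the probes are shown because the results below turn on which of them moved together. S100A8 and S100A12 each had 1 probe, S100A9 and S100A4 had 2 probes, S100A6 had 5, S100A11 had 4 and S100A10 had 1. In the S100A8 probe the capitals mark a match to the pattern GANNNNAANNNNGANGG, which holds the letters that codons of the conserved start of an EF-hand calcium-binding loop have in common. The pattern was found on the printed strand of 85 of the 60306 non-control probes of the array, or 0.141% of them, and on either strand of 0.235%.

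S100A8 probe A_72_P428729: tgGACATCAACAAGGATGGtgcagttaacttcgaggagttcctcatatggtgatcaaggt
S100A12 probe A_72_P441085: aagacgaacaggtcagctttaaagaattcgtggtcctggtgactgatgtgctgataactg
S100A9 probe A_72_P137861: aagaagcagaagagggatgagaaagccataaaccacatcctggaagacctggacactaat
S100A9 probe O5444: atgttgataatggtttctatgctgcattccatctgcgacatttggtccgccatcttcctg
S100A4 probe O11021: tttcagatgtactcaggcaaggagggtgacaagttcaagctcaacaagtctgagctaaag

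For S100A11, the capitals below mark the 32 bases that 2 of its probes share, and a spot named O14802 carries the same 60 bases as the first of them. The S100A10 spot is shown by its first 30 bases. Beneath it is a spot that the files name LOC100515138, after the gene number of S100A10 in the RefSeq table; 5 retained spots have this name and were read beside S100A10, although the name rule leaves them out.

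S100A11 probe A_72_P041606: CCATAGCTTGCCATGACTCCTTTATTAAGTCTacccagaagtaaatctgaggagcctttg
S100A11 probe A_72_P127441: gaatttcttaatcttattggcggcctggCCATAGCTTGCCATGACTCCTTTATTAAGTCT
S100A10 probe A_72_P293354, first bases: tctaatctctcgaaattgagctgcctgccc
LOC100515138 probe A_72_P688636: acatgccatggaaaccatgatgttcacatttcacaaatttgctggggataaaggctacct

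All 16 spots were called well above background on all 48 arrays, and none of their readings was saturated. A level is the log2 intensity minus the median of the array, so that a rise of 1 is a doubling against the median spot. Levels of different probes also reflect the probes and are not set against each other. The 48 arrays lay on 6 slides with 2 pigs of each group per slide, scanned on 3 days, and between 40771 and 46727 non-control spots per array were well above background. The number of pigs per group limits the precision.

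The 3 genes of neutrophils and monocytes had their highest mean levels in high RFI pigs fed the HF diet, and the other 3 groups had similar means. For S100A8 the level in high RFI pigs fed HF was 3.77 at the lowest, 5.52 at the median and 7.20 at the highest, with a mean of 5.52 ± 1.06 (SD, n = 12). In high RFI pigs fed LF it was 3.24, 4.64 and 5.89, with a mean of 4.65 ± 0.70 (SD, n = 12). In low RFI pigs fed HF the lowest, median and highest levels were 2.45, 4.81 and 6.72, with a mean of 4.75 ± 1.16 (SD, n = 12). The low RFI pigs fed LF spanned 3.59 to 6.71 with a median of 4.56 and a mean of 4.61 ± 0.90 (SD, n = 12). The 4 groups overlapped widely, and 9 of the 12 high RFI pigs fed HF were above the median of all 48 pigs, compared with 4 to 6 pigs in each of the other groups.

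S100A12, a ligand of AGER, had nearly the same distribution. Its lowest, median and highest levels were 3.97, 5.49 and 7.18 in high RFI pigs fed HF and 3.17, 4.67 and 5.89 in high RFI pigs fed LF. In low RFI pigs they were 2.49, 4.56 and 6.56 with HF and 3.41, 4.57 and 6.78 with LF. S100A9, the partner of S100A8, is the mean of a bright and a dim spot. It reached 0.46, 1.44 and 3.12 in high RFI pigs fed HF and −0.19, 0.85 and 1.80 in high RFI pigs fed LF. The corresponding levels in low RFI pigs were −0.75, 0.87 and 2.28 with HF and −0.17, 0.67 and 2.70 with LF. For both genes 9 of the 12 high RFI pigs fed HF were above the median of all pigs, as for S100A8, and the groups overlapped.

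**Figure D1:**
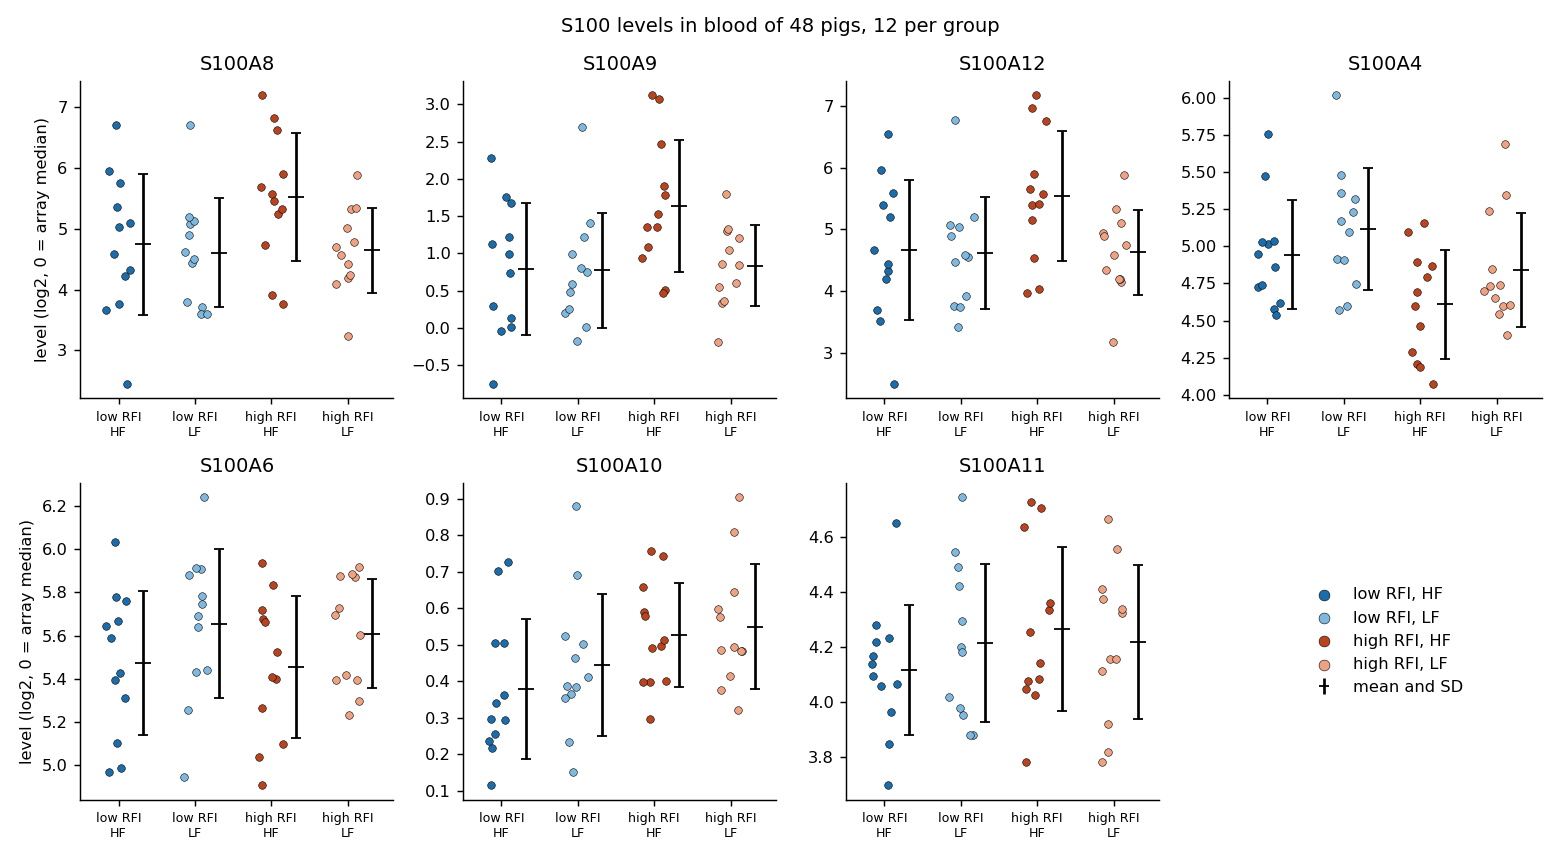
Level of each S100 gene (log2, 0 is the median of the array) in each of 48 pigs by line and diet, with the mean and SD of the 12 pigs of a group beside the points. For S100A8, S100A9 and S100A12 the high RFI pigs fed HF have the highest mean, and for every gene the groups overlap.

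The question of the design is whether blood differs between the lines, between the diets, and whether the diet difference depends on the line. None of the 7 genes passed the test for any of these. With limma's moderated test and Benjamini-Hochberg (BH) adjustment over all 26924 names, 0 of the 7 genes had an adjusted P-value under 0.05 for line, where 2.73% of all names did. For diet 0 of 7 passed, where 0% of all names did, and for the interaction 0 of 7, where again 0% did. At an unadjusted P-value under 0.05, 3 of the 7 genes differed between lines (42.9%, compared with 11.5% of all names), namely S100A9, S100A4 and S100A10. None did for diet (1.61% of all names) or for the interaction (2.25% of all names). Without the high RFI HF pig whose column was rebuilt the diet P-values of S100A8, S100A9 and S100A12 were 0.032, 0.041 and 0.043 before adjustment (1.39% of all names were under 0.05), and the interaction P-value of S100A9 was 0.048 (1.74% of all names). None was called. With that column as deposited the P-values of S100A9 were 0.027 for diet (0.531% of all names) and 0.032 for the interaction (0.516% of all names), and none was called. An analysis of variance of each gene also had 0 of 7 for each effect after adjustment, where 2.61% of all names passed for line and 0% for diet and for the interaction. Before adjustment it had 2 of 7 for line (11.7% of all names), 0 for diet (1.68%) and 0 for the interaction (2.33%). The median line difference over the 7 genes, low RFI minus high RFI, was −0.13, and over all names it was 0.02.

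S100A9 was lower in low RFI pigs by 0.46 ± 0.22 (log2 difference ± SE), or 1.37-fold, with an unadjusted P-value of 0.042 and an adjusted P-value of 0.394 by limma. Of the 24 low RFI pigs 17 were under the median of the high RFI pigs. Its bright spot A_72_P137861 had a line difference of −0.57 ± 0.28 and its dim spot O5444 one of −0.34 ± 0.17, and the 2 spots correlated at r = 0.88 over pigs. For O5444 the strand of the listed sequence relative to the transcript was not tested. That spot was as low as 1.54 times its background, and the S100A9 value is the mean of the 2 spots. S100A8 had a line difference of −0.41 ± 0.27 (adjusted P-value 0.688) and S100A12 one of −0.44 ± 0.27 (adjusted P-value 0.629). The 95% intervals, from −0.95 to 0.13 for S100A8 and from −0.98 to 0.10 for S100A12, leave room for no difference and for nearly a halving in low RFI pigs. On 5 of the 6 slides each of the 3 genes was lower in low RFI pigs, and on slide 2 each was higher, by 0.87 for S100A8, 0.71 for S100A9 and 0.90 for S100A12.

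The diet differences of these genes, HF minus LF, were 0.50 ± 0.27 for S100A8, 0.41 ± 0.22 for S100A9 and 0.48 ± 0.27 for S100A12, each with an adjusted P-value of 0.9999 by limma. Unadjusted, the P-values were 0.068, 0.069 and 0.077. The values within lines are given here together with the test of their difference. In high RFI pigs S100A8 was 0.87 ± 0.38 higher with HF, S100A9 0.80 ± 0.31 and S100A12 0.92 ± 0.38, with unadjusted P-values of 0.027, 0.013 and 0.019 and an adjusted P-value of 0.833 for each by limma. In low RFI pigs the same diet differences were 0.14 ± 0.38, 0.02 ± 0.31 and 0.05 ± 0.38. Their 95% intervals were wide, from −0.63 to 0.90, −0.61 to 0.64 and −0.71 to 0.81. The difference between these diet differences is the interaction, and it did not pass the test: it was −0.73 ± 0.54 for S100A8 (P-value 0.18), −0.78 ± 0.44 for S100A9 (P-value 0.081) and −0.87 ± 0.54 for S100A12 (P-value 0.113), with an adjusted P-value of 0.892 for each.

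Read the other way, the line difference of these 3 genes within the HF diet was −0.78 ± 0.38 for S100A8, −0.85 ± 0.31 for S100A9 and −0.88 ± 0.38 for S100A12. The adjusted P-values were 0.582, 0.285 and 0.445 by limma. Within the LF diet the differences were −0.05 ± 0.38, −0.07 ± 0.31 and −0.01 ± 0.38. The interaction was below 0 on 6 of 6 slides for each of the 3 genes, from −1.53 to −0.16 for S100A8, from −1.20 to −0.33 for S100A9 and from −1.79 to −0.31 for S100A12. Of all 26924 names 1.28% had an interaction below 0 on all 6 slides. The 3 genes moved almost as 1 across pigs, as given below, and so are not 3 separate readings of it.

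S100A4 went the other way. Its level in low RFI pigs was 4.54 at the lowest, 4.90 at the median and 5.76 at the highest with HF, and 4.57, 5.13 and 6.02 with LF. In high RFI pigs the levels were 4.07, 4.64 and 5.16 with HF and 4.41, 4.71 and 5.69 with LF. Of the 24 low RFI pigs 19 were above the median of the high RFI pigs, and the 3 lowest pigs of all were high RFI pigs fed HF. The line difference was 0.31 ± 0.11, or 1.24-fold, with a P-value of 0.0066 and an adjusted P-value of 0.136 by limma. It was the only one of the 7 genes to reach the criterion of the methods (P-value under 0.01 and fold change above 1.1), which 5.56% of all names reached. Without the high RFI HF pig whose column was rebuilt the P-value was 0.0104, which misses that criterion. The difference was above 0 on 5 of 6 slides and ranged from −0.17 to 0.94. Within diets it was 0.33 ± 0.15 with HF and 0.28 ± 0.15 with LF, and the interaction was 0.06 ± 0.21.

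Both S100A4 spots gave the same picture. The line difference was 0.33 ± 0.12 at O11021 (adjusted P-value 0.162 over the 37113 spots) and 0.28 ± 0.10 at the other spot (adjusted P-value 0.115). Deviations from group means at the 2 spots correlated at r = 0.95 over 48 pigs. A spot named LOC100156358, which is the gene number of S100A4 in the RefSeq table, shares 40 bases with the second S100A4 spot. Its line difference was 0.29 ± 0.10, with an adjusted P-value of 0.0913 over the spots. A retained spot without a gene name that shares 34 bases had 0.30 ± 0.09 and an adjusted P-value of 0.0758. These spots read the same stretch of RNA, so they repeat the S100A4 measurement and do not add pigs.

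S100A6 had 5 spots and no line difference that could be told from 0. Its lowest, median and highest levels were 4.97, 5.51 and 6.03 in low RFI pigs fed HF and 4.95, 5.72 and 6.24 in low RFI pigs fed LF. In high RFI pigs they were 4.91, 5.47 and 5.94 with HF and 5.23, 5.65 and 5.92 with LF. The groups overlapped throughout. The line difference was 0.03 ± 0.09 with a 95% interval of −0.15 to 0.21, and the 5 spots gave 0.004 to 0.05. The diet difference was −0.17 ± 0.09 (P-value 0.068, adjusted P-value 0.9999 by limma), and 18 of the 24 pigs fed HF were under the median of the pigs fed LF. The 5 spots correlated with each other at r = 0.82 to 0.97 over pigs.

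S100A11 was level over the groups as well. It had medians of 4.12 and 4.19 in low RFI pigs fed HF and LF, and of 4.197 and 4.239 in high RFI pigs fed HF and LF, within a range of 3.70 to 4.74 over all pigs. The line difference was −0.07 ± 0.08 (95% interval −0.23 to 0.08) and the diet difference −0.03 ± 0.08 (95% interval −0.18 to 0.13).

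The 4 spots of S100A11 did not measure the same thing. The spots A_72_P041606, O14802 and A_72_P127441 correlated with each other at r = 0.88 to 0.98 over 48 pigs after group means were removed. The fourth, A_72_P324328, correlated with them at 0.07 to 0.14 only. It correlated at r = 0.92 with a spot of no gene name, A_72_P110491, with which it shares the 23 bases TTGTGGCTCAGCAGGTTAGGAAC. Other non-control probes that share at least 14 bases with A_72_P324328 numbered 11, none of them named S100A11. There were 2 such probes for A_72_P041606 and for O14802 and 1 for A_72_P127441. For the bright S100A9 spot A_72_P137861, probes of other names that share 14 bases numbered 7. As the mean of the 3 concordant spots, a setting chosen after the values were seen, S100A11 had a line difference of −0.06 and a diet difference of 0.00014. The interaction was −0.14 ± 0.16 for the mean of the 4 spots and 0.21 at the discordant spot. It was −0.31 at O14802, −0.26 at A_72_P041606 and −0.23 at A_72_P127441, and none of these was called.

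**Figure D2:**
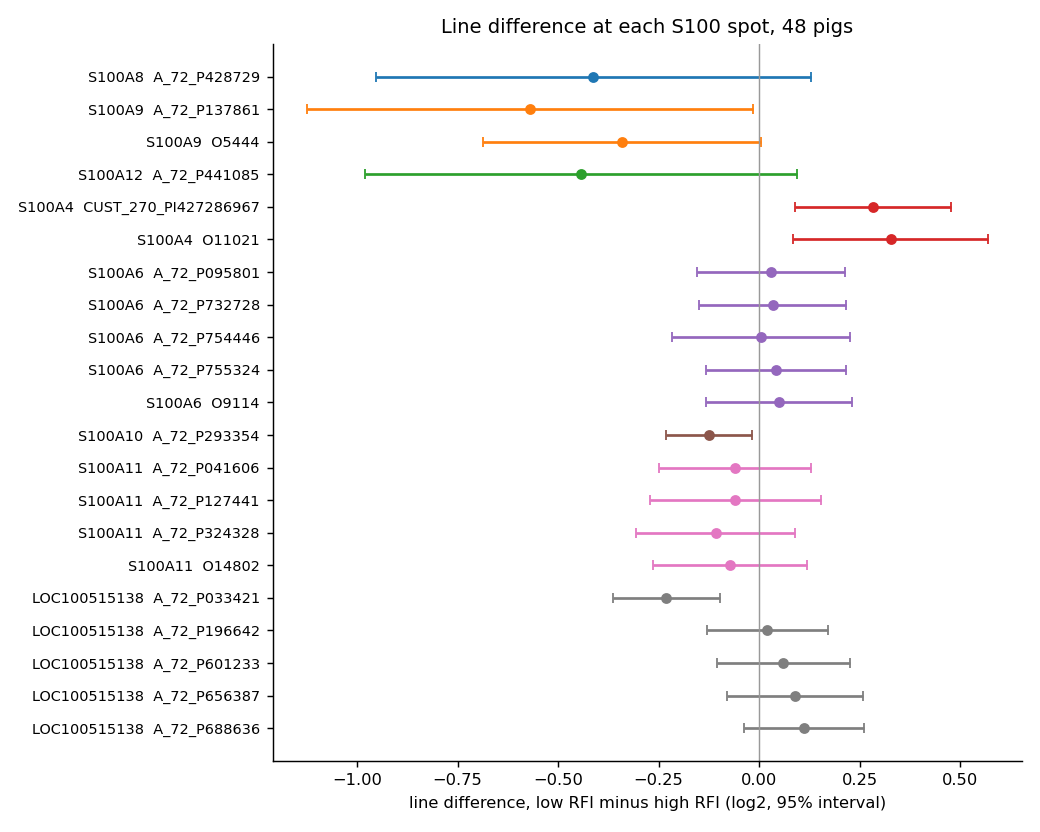
Line difference (low RFI minus high RFI, log2) at each spot of the S100 genes and at the 5 spots named LOC100515138, with 95% intervals from the fit of 48 pigs, 1 colour per gene name. The 2 S100A4 spots lie above 0, the S100A8, S100A9 and S100A12 spots lie below 0 with wide intervals, and A_72_P033421 lies apart from the other 4 spots of its name.

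S100A10 had a single spot, which was above background on every array. Its lowest, median and highest levels were 0.11, 0.32 and 0.73 in low RFI pigs fed HF and 0.15, 0.40 and 0.88 in low RFI pigs fed LF. In high RFI pigs they were 0.30, 0.51 and 0.76 with HF and 0.32, 0.49 and 0.90 with LF. The low RFI pigs were lower by 0.13 ± 0.05, or 1.09-fold, with a P-value of 0.022 and an adjusted P-value of 0.269 by limma. The difference was below 0 on 6 of 6 slides, from −0.23 to −0.05. Of all names 3.22% were below 0 on all slides.

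The spots named LOC100515138 did not follow that spot. Their mean had a line difference of 0.01 ± 0.07, and over 48 pigs it correlated with the S100A10 spot at r = −0.20 (rho = −0.14, permutation P-values 0.182 and 0.33). The S100A10 spot correlated with the 5 spots singly at −0.25 to 0.07, and those 5 correlated with each other at 0.30 to 0.87. One of the 5, A_72_P033421, was lower in low RFI pigs by 0.23 ± 0.07, with an adjusted P-value of 0.0419, where 2.77% of all spots passed. The other 4 had line differences of 0.02 to 0.11. By the descriptions in the scanner files those 4 read protein S100-A10, as the S100A10 spot does by its own description, and that of A_72_P033421 does not name S100A10. Which of these probes read the S100A10 transcript was not tested. All values given for S100A10 are those of its single spot A_72_P293354 and may not stand for the gene.

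**Figure D3:**
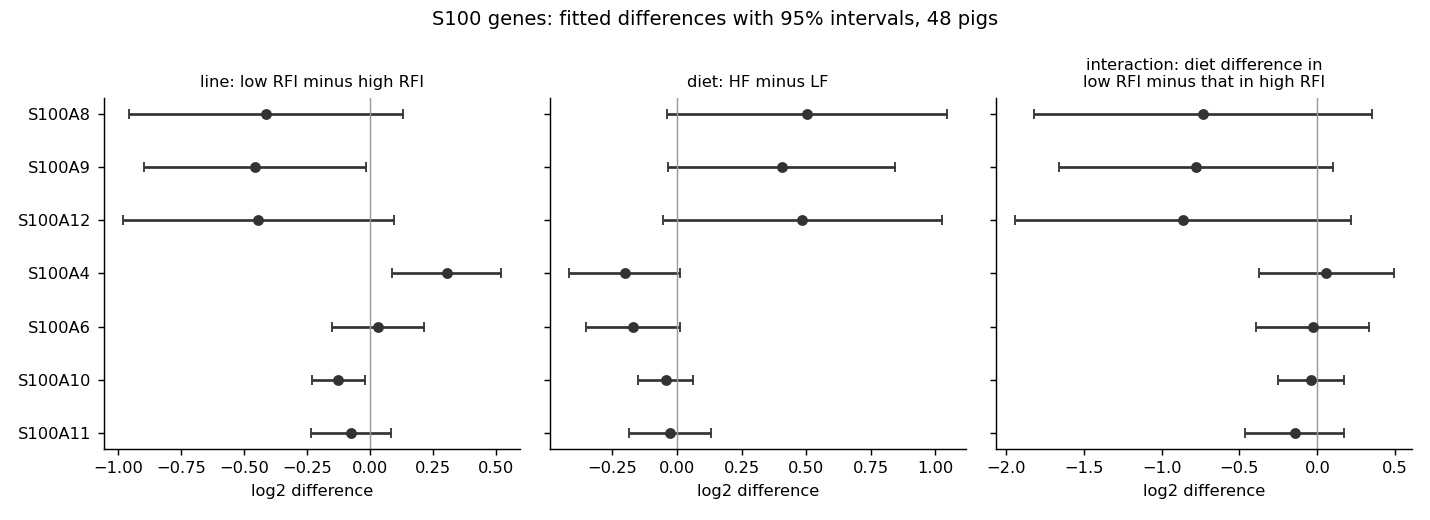
Fitted log2 differences with 95% intervals for each S100 gene: line (low RFI minus high RFI), diet (HF minus LF) and interaction (diet difference in low RFI minus that in high RFI), from 48 pigs. The intervals of S100A8, S100A9 and S100A12 are the widest, and only the line intervals of S100A9, S100A4 and S100A10 leave out 0.

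Pigs of the same group differed far more in some S100 genes than in others. The SD within groups was 0.97 for S100A8 and 0.96 for S100A12, larger than for 99.3% and 99.2% of all names, and 0.78 for S100A9, larger than for 97.7%. The median SD over all names was 0.26. From the lowest to the highest of the 48 pigs, S100A8 spanned 26.8-fold, S100A12 25.7-fold and S100A9 14.6-fold. The S100A9 SD and span are those of the mean of its bright and dim spots. Its bright spot alone ran from 0.75 to 5.74 in log2 and its dim spot from −2.25 to 0.65, compared with 2.45 to 7.20 for S100A8. S100A4 had an SD of 0.38, S100A6 0.32 and S100A11 0.28. The single S100A10 spot was among the steadier readings, with an SD of 0.18, larger than for 11.8% of names, and a span of 1.73-fold. The mean of the LOC100515138 spots had an SD of 0.23, larger than for 34.2% of names, and a span of 1.98-fold.

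The wide spread was shared. Deviations from group means of S100A8 and S100A12 correlated at r = 0.99 (rho = 0.99) over 48 pigs, those of S100A8 and S100A9 at r = 0.96 (rho = 0.97), and those of S100A9 and S100A12 at r = 0.96 (rho = 0.96). Each of these had an adjusted permutation P-value of 3e-05 over the 21 pairs of genes, from 1e-05, the smallest that 100000 permutations can give. Without the 2 pigs farthest from the median the 3 correlations were 0.95 to 0.99. Within slides they ran from 0.952 to 0.999, and within each of the 4 groups from 0.95 to 0.99. Low RFI HF replicate 7 had the lowest level of all 3 genes, and high RFI HF replicate 5 had the highest level of S100A8 and S100A12 and the second highest of S100A9. Spots with the same 60 bases gauge the error of reading a spot, but not errors of extraction or labelling, which they share. A retained spot without a gene name that carries the 60 bases of the bright S100A9 probe correlated with it at r = 0.997. The S100A11 spots A_72_P041606 and O14802, which carry the same 60 bases, correlated at r = 0.975.

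**Figure D4:**
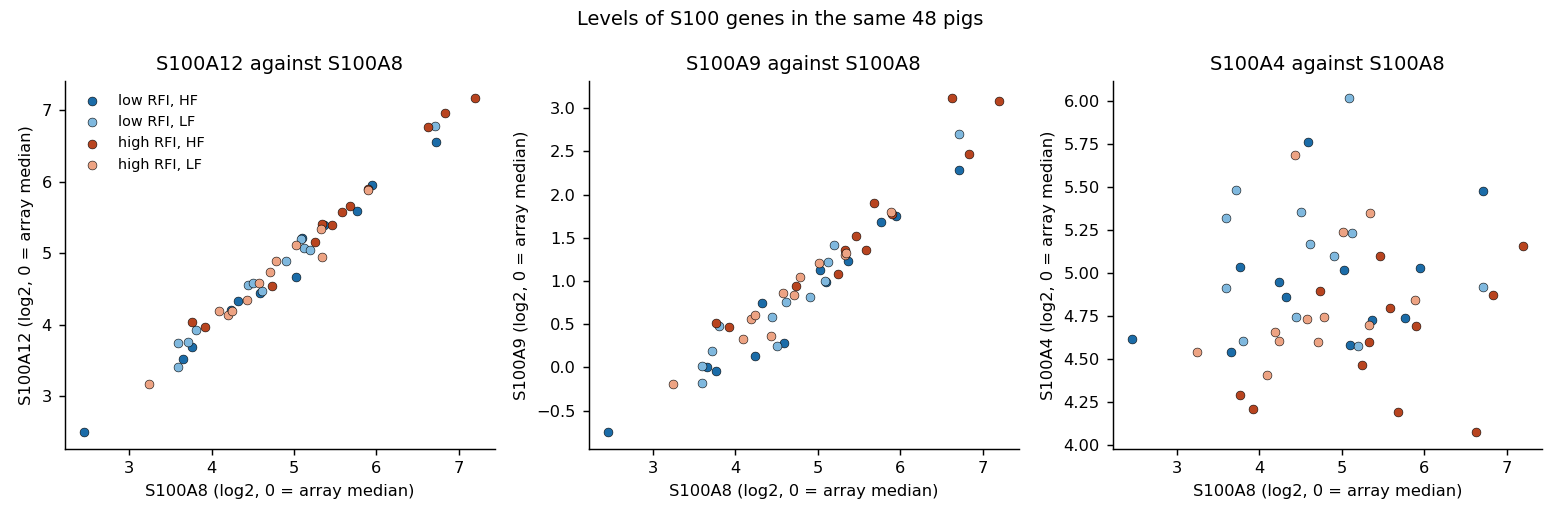
Level of S100A12, S100A9 and S100A4 against the level of S100A8 in the same 48 pigs (both axes log2, 0 is the array median), coloured by group. S100A12 and S100A9 follow S100A8 closely in every group, and S100A4 does not.

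S100A4 and S100A6 formed a looser pair, with r = 0.65 (rho = 0.62, adjusted permutation P-value 3e-05) over 48 pigs, 0.61 without the 2 extreme pigs, and 0.42 to 0.89 within slides. S100A4 and S100A8 had r = 0.26 (rho = 0.26, adjusted P-value 0.0977). S100A6 correlated with S100A8 at r = 0.41 (rho = 0.32, adjusted P-value 0.0068), with S100A12 at 0.38 (rho = 0.29, adjusted P-value 0.0142) and with S100A9 at 0.33 (rho = 0.26, adjusted P-value 0.0331). S100A11 correlated with every other S100 gene at 0.56 to 0.65, except with the single S100A10 spot, as given below. Among them were S100A8 at r = 0.64 (rho = 0.59, adjusted P-value 3e-05) and S100A4 at r = 0.56 (rho = 0.60, adjusted P-value 7e-05). On the slide scanned last, which held 8 pigs, the S100A8 correlation was 0.17, compared with 0.74 and 0.70 in the other scans. As the mean of the 3 concordant spots S100A11 had r = 0.65 with S100A8, and at the discordant spot r = 0.16. The S100A10 spot correlated negatively with S100A11 (r = −0.43, rho = −0.41, adjusted P-value 0.0049) and with S100A4 (r = −0.37, rho = −0.35, adjusted P-value 0.0158). This did not hold within every slide, where the r with S100A11 ran from −0.70 to 0.16 and that with S100A4 from −0.53 to 0.09. The mean of the LOC100515138 spots went the other way. Its r was 0.55 with S100A11 (rho = 0.54), 0.69 with S100A4 (rho = 0.63) and 0.69 with S100A6 (rho = 0.73). Their adjusted permutation P-values were 0.00014 or lower.

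Marker genes of blood cells were read beside these genes, as the mean level of each list. Erythroid markers, which define whole blood, had a retained spot for 8 of 8 genes, including HBB, a globin chain of hemoglobin. S100A8, S100A9 and S100A12 moved with the 7 neutrophil granule genes found of 12 (such as LTF and LCN2, proteins stored in granules), at r = 0.75, 0.70 and 0.76 over 48 pigs (rho = 0.69, 0.64 and 0.71, adjusted permutation P-value 8e-05 for each over 56 pairs). In the 3 scans the S100A8 value was 0.73, 0.80 and 0.74. With the 6 mature neutrophil markers found of 10 the 3 genes had r = 0.55, 0.61 and 0.55. This was 0.55 and 0.67 for S100A8 in the first scans and −0.08 in the third. With the 7 monocyte markers found of 10 they had r = 0.58, 0.64 and 0.57, and in the 3 scans 0.75, 0.60 and 0.28 for S100A8.

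S100A4 and S100A6 had their highest r with lymphocyte lists. With the 6 T cell markers found of 8 the correlation was r = 0.62 for S100A4 (rho = 0.56) and 0.54 for S100A6 (rho = 0.56), and with the 5 natural killer and cytotoxic markers found of 7 it was 0.60 and 0.55. The adjusted permutation P-values of these 4 were 0.00034 or lower, and in the 3 scans the T cell value of S100A4 was 0.62, 0.66 and 0.97. With the 8 erythroid markers they had r = −0.58 and −0.61 (rho = −0.45 and −0.65, adjusted P-value 8e-05 for each), in the 3 scans −0.55, −0.78 and −0.70 for S100A4. S100A6 also correlated with the monocyte markers (r = 0.39, rho = 0.41, adjusted P-value 0.016). Each level is set against the median of its array, and the part of erythroid RNA in these values was not tested. S100A11 correlated with monocyte markers (r = 0.61, rho = 0.59, and 0.65, 0.75 and 0.47 in the 3 scans) and mature neutrophil markers (r = 0.52, rho = 0.47). It also correlated negatively with the erythroid markers (r = −0.44, rho = −0.45, adjusted P-value 0.0053), at −0.55, −0.46 and −0.53 in the 3 scans, and weakly with the cytotoxic markers (r = 0.35, rho = 0.37, adjusted P-value 0.0442). S100A10 correlated with no list at an adjusted P-value under 0.05. With the B cell list the correlations of the 7 genes were −0.31 to 0.31, and with the platelet list −0.10 to 0.19.

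**Figure D5:**
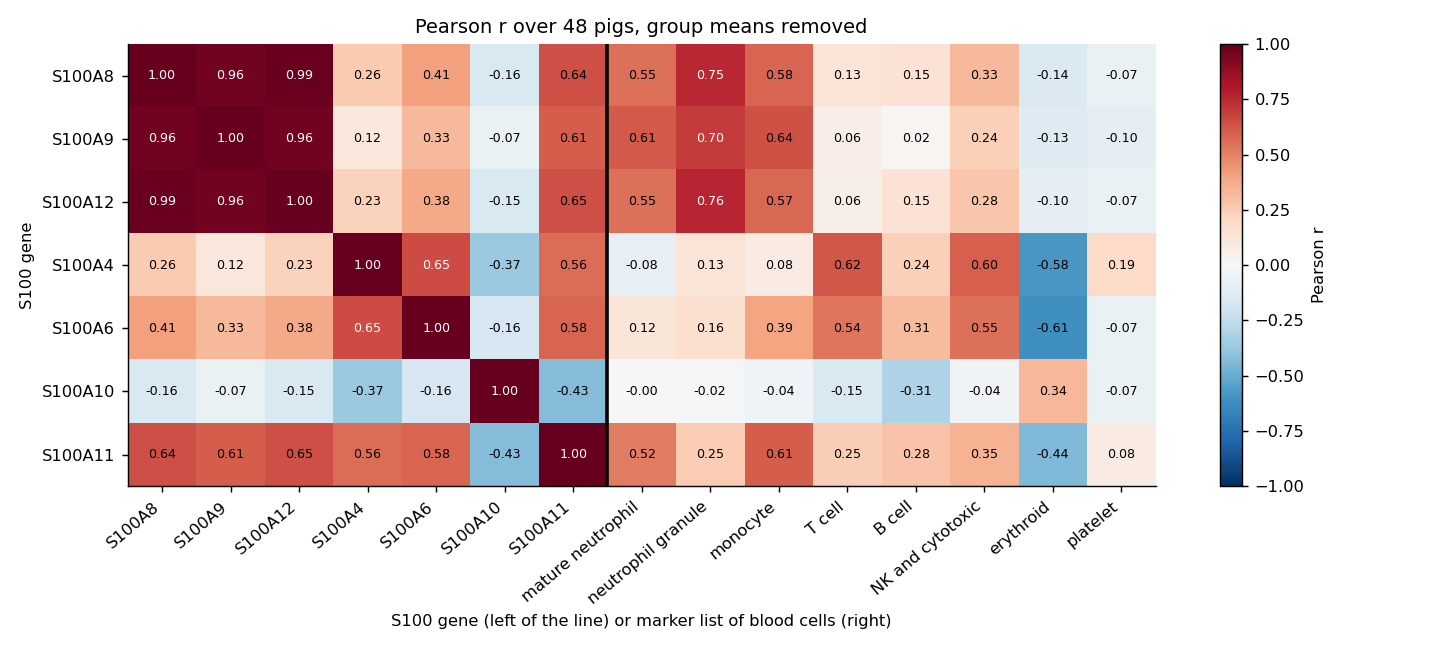
Pearson r over 48 pigs, with group means removed, between each pair of S100 genes (left of the line) and between each S100 gene and the mean of 8 marker lists of blood cells (right of the line). S100A8, S100A9 and S100A12 form a block at 0.96 to 0.99 and share their highest list values with the neutrophil granule genes, and S100A4 and S100A6 have theirs with T cell and cytotoxic markers.

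The genes of these lists were also compared between groups, gene by gene. Of the mature neutrophil markers found, 5 of 6 were lower in low RFI pigs, with a median line difference of −0.28, and CXCR2, a chemokine receptor, passed the test by limma at −0.42 (adjusted P-value 0.0441). The mean level of the list ran from 1.70 to 2.48 in low RFI pigs fed HF, 1.89 to 2.71 in low RFI pigs fed LF, 1.95 to 2.87 in high RFI pigs fed HF and 2.02 to 2.65 in high RFI pigs fed LF. The granule genes had a different pattern, with 7 of 7 above 0 for line at a median of 0.16 and none past the test. For diet their median was 0.67 higher with HF, 0 of 7 passed the test and 6 of 7 had an unadjusted P-value under 0.05 (1.61% of all names), ELANE being the exception. This list was chosen with earlier diet results of these data known, so the count cannot test the list against all names. The mean level of the granule genes ran from −0.74 to 3.004 and −0.12 to 2.12 in low RFI pigs fed HF and LF, and from −0.50 to 3.39 and −1.34 to 1.45 in high RFI pigs fed HF and LF. The part of these cells in the group differences of S100A8, S100A9 and S100A12 was not tested.

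Of the monocyte markers 1 of 7 passed for line, CD14, which was lower by 0.47 in low RFI pigs (adjusted P-value 0.0418), and the median of the list was −0.08. T cell markers were 6 of 6 higher in low RFI pigs, at a median of 0.15, and LCK, a kinase of the T cell receptor, passed at 0.21 (adjusted P-value 0.0408). The mean level of that list ran from 2.09 to 2.61 and 2.15 to 2.60 in low RFI pigs fed HF and LF, and from 1.98 to 2.39 and 1.94 to 2.82 in high RFI pigs fed HF and LF. This is the direction of S100A4, and the part of these cells in its line difference was not tested. B cell markers were lower in low RFI pigs for 5 of 5, and MS4A1, the CD20 antigen, passed the test at −0.36 (adjusted P-value 0.0013). Of the erythroid markers 7 of 8 were higher in low RFI pigs and SLC4A1, the anion exchanger of the red cell, passed at 0.26 (adjusted P-value 0.0472). None of 5 cytotoxic and none of 4 platelet markers passed, with medians of 0.13 and −0.04.

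The receptors that extracellular S100A8, S100A9 and S100A12 act on were mostly level. Of 8 receptors and co-receptors 7 were found, and 1 passed for line, CD14, the co-receptor of TLR4, and none for diet or interaction. Its values are given with the monocyte markers. LY96, the protein through which TLR4 binds lipopolysaccharide, was at −0.22 with a P-value of 0.0083 and an adjusted P-value of 0.157, and 20 of 24 low RFI pigs were under the median of high RFI pigs. TLR4 itself was at −0.13 ± 0.10 and AGER at 0.04 ± 0.09. The list median was 0.01.

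Of the intracellular partners, annexins and subunits of the neutrophil NADPH oxidase among them, 13 of 14 were found and none passed for line, diet or interaction, with a median line difference of 0.01. Among the lowest line P-values were those of ARRB1 at 0.316 and NCF1 at 0.401. ANXA2, the partner of S100A10, had a line difference of −0.01 ± 0.06, and ANXA1, the partner of S100A11, one of −0.06 ± 0.09.

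Among the other S100 genes 6 of 13 were found and 1 passed for line. S100B, best known from glia and also made by some lymphocytes, was 0.36 ± 0.09 higher in low RFI pigs, with an adjusted P-value of 0.0179, and 19 of 24 low RFI pigs were above the median of high RFI pigs. S100A1 was at −0.25 ± 0.12 (P-value 0.048, adjusted P-value 0.423). S100A7, S100A14, S100A16 and S100G had line differences of −0.05 to 0.07. None of the 6 had a P-value under 0.05 for diet or interaction.

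The genes whose deviations were most like those of an S100 gene over 48 pigs were sought among 10939 names. For S100A8 they were HP, haptoglobin, at r = 0.91, RETN, resistin, at 0.89, and LTF, lactotransferrin, at 0.88. For S100A12 they were HP at 0.92, LTF at 0.88 and RETN at 0.88, and for S100A9 they were HP at 0.92, RETN at 0.87 and TCN1, a vitamin B12 binder of granules, at 0.86. All 4 had line differences with adjusted P-values of 0.797 or higher. For S100A4 the first was LOC100156358, its own gene number, at 0.95, followed by UBE2T, a ubiquitin-conjugating enzyme, at 0.80 and DUT, the dUTPase, at 0.79. For S100A6 they were ACTR2 at 0.77, MRPL45 at 0.77 and TMCO1 at 0.76. For S100A11 they included PGK1 at 0.83 and CCPG1 at 0.81. For S100A10 the values were lower, with FRMD5 at 0.67, HMOX2 at 0.66 and SLC15A4 at 0.66.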

How the data were processed

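RNA from the blood of each of 48 pigs was read on a custom porcine Agilent array in 1 colour, and spots were quantified with Agilent Feature Extraction 10.7.3.1. The authors deposited scanner files with spot intensities, and a table in log2 units of the 37113 spots that passed their filters on background, diameter, saturation and uniformity, centred on the array median in R 3.0.2. For 47 arrays the deposited values could be rebuilt within 1e-06 from median pixel intensities, without background subtraction. For high RFI HF replicate 1 the number 2.71 fills 37090 entries after the first 23, and these values were rebuilt from that pig's scanner file.

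A gene value was the mean of its retained spots, by the gene name in the scanner files. Group means were fitted with limma 3.58.1 in R 4.3.3 over all 26924 names or 37113 spots, with 2-sided tests, moderated variances and BH adjustment. A call was an adjusted P-value under 0.05. Correlations used deviations from group means, 100000 permutations and BH adjustment within each family, in Python 3.11.15 with numpy 2.4.6, pandas 2.3.3 and scipy 1.17.1, and figures were drawn with matplotlib 3.10.9. Replicates are separate pigs. The genes and all lists were chosen with earlier results of these data known. All 7 S100 genes are named, and their spots are named or given as ranges, with the list genes past the adjusted P-value, or the 3 lowest line P-values where none passed, and the 3 most similar names per gene. A few other list genes (LY96, TLR4, AGER, ANXA1, ANXA2, S100A1, S100A7, S100A14, S100A16, S100G, HBB, LTF, LCN2 and ELANE) were named after their values were seen. A few genes that this rule names are not reported here. The fit was tested on simulated data with known changes. The fits were repeated with 14 other choices of test, signal, spots and block, and with 1 chosen after seeing the data. Genome builds of the probe annotation are not given in the sources used here, so no coordinates are printed.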

Additional observations from a re-analysis of the deposited data

How the results depend on the processing

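None of the 7 S100 genes was called for line, diet or interaction under any of the 14 other fits or the 1 added after the data were seen, and the criterion of the methods gave 1 line call, S100A4. Over the 14 fits the adjusted P-value of the S100A4 line difference ran from 0.0591, with background-corrected signals set against the 75th percentile, to 0.367. That of S100A9 ran from 0.287 to 0.588 and that of S100A10 from 0.179 to 0.822. Of 315 log2 differences of single genes 311 kept their direction and side of the threshold and 4 changed sign, none of them called. With the rebuilt column as deposited, which moved the median over all names to −0.11 for line, 0.12 for diet and −0.25 for the interaction, the S100A6 interaction became 0.16 and the S100A10 diet difference 0.038, and the S100A11 diet difference became 0.021 with the brightest spot and 0.00014 without the discordant spot. The correlations among S100A8, S100A9 and S100A12 were 0.97 to 0.99 with slide means removed and 0.96 to 0.99 with background-corrected signals. The labels give the groups the same replicate numbers. Over 72 pairs of pigs with the same number the correlation of deviations ran from −0.63 to 0.73, it was over 0.1 in 43, and 22 of 48 pigs correlated best with a pig of their own number. The median was 0.18 for pigs with the same number, 0.08 for other pigs of the same slide and −0.04 for pigs of other slides, which is a hint of pairing from the data, not from the design. Neither the labels nor the methods say what a shared number means, and the number was not used as a pairing. With the replicate block 0 genes were called for line, diet or interaction, and the S100A4 line difference had an adjusted P-value of 0.0794. For diet the block moved 4 of the 7 genes under an unadjusted P-value of 0.05, from 0 without it, where 2.53% of all names were under it with the block, namely S100A8 (0.0423), S100A12 (0.0493), S100A4 (0.0488) and S100A6 (0.0391), each with an adjusted P-value of 0.996 by limma. Fits with slide or scan day as a block gave 0 calls as well. Every S100 spot was well above background on every array.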
